A study of Mus musculus with 16 samples.

Results

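The translation machinery on these liver arrays comprised 91 genes of the 6734 that a probe with a single gene symbol named. Members were chosen by symbol alone: ribosomal proteins of the cytosol (Rpl, Rps, Rplp and Rpsa) and of mitochondria (Mrpl and Mrps), and symbols starting with Eif or Eef, without the ribosomal S6 kinases. They fell into 28 genes of the cytosolic ribosome, 30 of the mitochondrial ribosome, 21 initiation factors, 4 elongation factors and 8 regulators, which carry a factor's name but are kinases, binding proteins or methyltransferases. All but Eif4g2, which had a value in 5 mice, could be tested, so 90 were.

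The samples were 8 livers of female APOE3Leiden (E3L) mice that ate diet W with 0.04% cafestol and 0.02% kahweol, compounds of unfiltered coffee, against liver RNA from 7 mice on diet W alone. Diet W is a semi-synthetic diet with 15 g of saturated fat and 0.25 g of cholesterol per 100 g, and both groups began at 10 weeks of age and ate their diets for 4 weeks. All mice carried the APOE3Leiden transgene, a human apolipoprotein E variant, on a background over 99% C57BL6/JIco (N21 generation), and no mice without it were analysed here. The poly(A) RNA of each cafestol-fed liver was hybridised on 2 GEM 2.03 cDNA arrays, with control-diet RNA in the other channel. The titles number 4 mice with SY and 4 with TP, letters that the labels do not explain.

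Cytosolic ribosomes translate nuclear mRNAs, and each is built from a large and a small subunit of RNA and many proteins. Initiation factors bring the small subunit to an mRNA and find the start codon, and elongation factors deliver aminoacyl-tRNAs and move the ribosome along. Mitochondrial ribosomes are a separate machine, also encoded by nuclear genes apart from their RNAs, that makes the few respiratory chain subunits encoded in mitochondrial DNA. The mRNAs of cytosolic ribosomal proteins and of several factors begin with an unbroken tract of pyrimidines, through which mTOR signalling and the protein Larp1 are known to control their translation.

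All measurements are log2 ratios of the cafestol and control channels, and no source used here says which channel is on top, so a negative value cannot be read as lower or higher under cafestol. Control-diet RNA was labelled with Cy3 on every array, and 0 arrays had the dyes swapped, so a dye effect of a gene and its diet effect cannot be told apart. The ratio against 0 leaves out the spread among control mice. A gene "passed" at an adjusted p under 0.05 (limma on 8 mice, adjusted over all 8348 genes and unnamed probes tested). In whole liver, fewer cells of a type and less RNA per cell cannot be told apart, and ratios give no level by which to check the tissue against its markers.

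The deposited values are coarse, since each is the log2 of a ratio rounded to 1 decimal, or its negative. Of them 31.8% were 0, and the smallest size other than 0 was 0.14, with narrower steps farther from 0. The 2 arrays of a mouse lay within 0.15 of each other for 95.5% of 705 pairs of member values, and the largest gap was 0.38. Over all tested genes and probes, arrays of the same mouse correlated at 0.761 to 0.913 and arrays of different mice at 0.163 to 0.811, so no array ran opposite to the others. The mouse TP4215 had the lowest correlation with the mean of the other mice (0.599), followed by SY524ROB+L (0.612).

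Of the 90 tested members 42 passed with a negative ratio, where 25.4% of all genes and probes tested did, and 10 passed with a positive ratio, against 18.0% of all; on either side 43.4% of everything tested passed, and among named genes 27.9% and 16.4%. The median mean log2 ratio was -0.09 over the members and -0.02 over everything tested. The cytosolic ribosome held 19 of the negative members, out of its 28 (median -0.26), and the elongation factors 3, out of 4 (median -0.37). The mitochondrial ribosome stood near the background on both sides, with 7 negative and 5 positive of 30 and a median of -0.02. No test between the classes was made, and these counts and medians are descriptions.

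**Figure D1:**
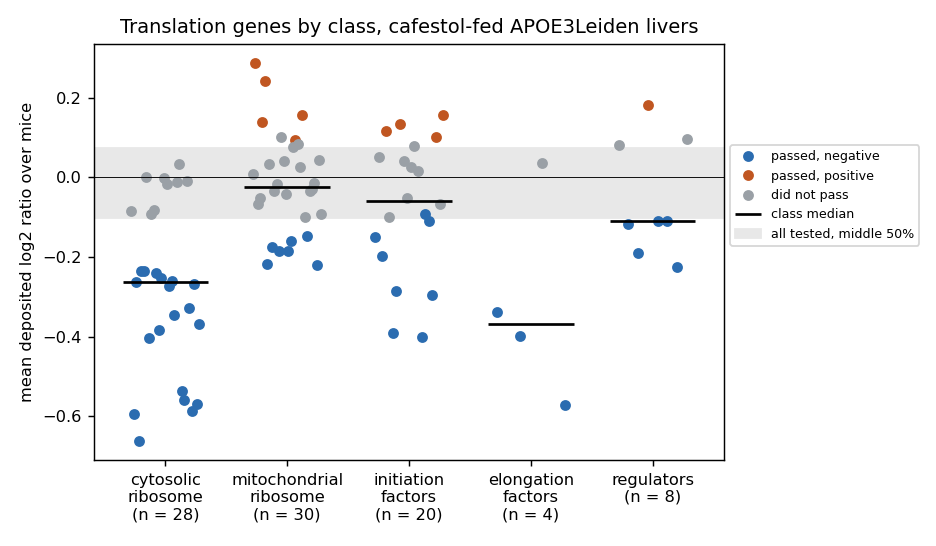
Mean deposited log2 ratio over the mice (vertical axis) of each tested member, by class; blue points passed with a negative and orange points with a positive ratio, grey points did not pass, black bars are class medians and the grey band holds the middle 50% of everything tested. All 28 cytosolic ribosomal genes lie at or below 0.03, while the mitochondrial ribosome spreads on both sides of 0.

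Because many of these mRNAs are known for a pyrimidine tract at the start of the transcript, the annotated start sites are shown for 8 members that span the classes and outcomes. Each line gives 10 bases before and 20 from the RefSeq start on the sense strand (assembly GRCm38.p6), with the longest run of C and T in capitals, and the start is the 11th base.
Rpl28: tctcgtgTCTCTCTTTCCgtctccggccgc
Rplp2: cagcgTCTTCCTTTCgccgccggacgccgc
Rps6: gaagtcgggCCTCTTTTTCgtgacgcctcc
Eef1a1: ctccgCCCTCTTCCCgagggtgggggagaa
Eif3f: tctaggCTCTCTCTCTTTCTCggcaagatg
Rpl13: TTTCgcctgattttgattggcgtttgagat
Rpl35a: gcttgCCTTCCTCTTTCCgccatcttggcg
Mrpl49: cgcatatgacaCTCagttgaggcgccaaga
The first 6 genes passed with a negative ratio, Rpl35a did not pass, and Mrpl49 passed with a positive ratio. Rpl28 is at chr7:4792955-4792984 (plus strand), Rplp2 at chr7:141447641-141447670 (plus), Rps6 at chr4:86857348-86857377 (minus) and Eef1a1 at chr9:78481705-78481734 (minus). Eif3f is at chr7:108934405-108934434 (plus), Rpl13 at chr8:123102340-123102369 (plus), Rpl35a at chr16:33056472-33056501 (plus, 1 of 3 annotated starts) and Mrpl49 at chr19:6057736-6057765 (minus). The longest run has 11 bases in Rpl28, 10 in each of Rplp2, Rps6 and Eef1a1, 15 in Eif3f and 13 in Rpl35a, but 4 in Rpl13 and 3 in Mrpl49. Except in Mrpl49 these runs include bases before the start, and that of Rpl13 lies wholly before it. The start printed for Rpl35a is the one with the longest run, and its other annotated starts have runs of 4 and 5.

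A run of 8 or more C or T was sought within 25 bases before or after an annotated start, on the sense strand. Such a run was found in 12 of the 19 cytosolic ribosomal genes with a promoter in the table (63.2%), against 22.3% of 27025 mouse genes. It was present in 4 of 24 mitochondrial ribosomal genes (16.7%), 5 of 17 initiation factors (29.4%) and all 3 elongation factors with a promoter in the table, Eef1a2 among them. Within the cytosolic ribosome, 9 of the 13 genes that passed and 3 of the 6 that did not pass held a run. The letters CTCTTT on the sense strand overlap these runs in Rpl28, Rps6, Eif3f and Rpl35a. They stood in the same window of 5 of 19 cytosolic ribosomal genes (26.3%), 0 of 24 mitochondrial ones and 2.25% of all genes. Among the other classes they stood in 2 of 17 initiation factors (11.8%), 0 of 3 elongation factors and 0 of 6 regulators. Within the cytosolic ribosome these letters stood in 3 of the 13 genes that passed and in 2 of the 6 that did not pass. Run length and motif were chosen after sequences had been viewed, an annotated start can be some bases off, and a match is a description and no site.

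The large cytosolic subunit had 16 genes on the arrays, of which 11 passed, all negative, and 5 did not. In the whole cytosolic ribosome 0 genes passed on the positive side by limma, and 0 did so at an unadjusted p under 0.05. Rpl28, a protein of the large subunit's surface and the member farthest from 0, had log2 ratios of -0.77, -0.63, -0.85 and -0.72 in the SY mice SY518Z, SY521RL, SY522ROB and SY524ROB+L, and of -0.54, -0.85, -0.63 and -0.32 in the TP mice TP4163, TP4168, TP4205 and TP4215. Every mouse was below 0, the SY and TP mice overlapped, and TP4215 lay nearest to 0. Its mean of -0.66 ± 0.18 (SD over 8 mice) equals a ratio of 1.58-fold, with an adjusted p of 4.89e-06 by limma, and it ranked 22 from the lowest of the 8348 tested.

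Rplp1 and Rplp2 encode the acidic proteins of the stalk, the flexible arm of the large subunit that binds the GTPase factors. Rplp1 ran from -0.89 in TP4163 to -0.38 in SY521RL with a median of -0.58 (mean -0.59 ± 0.18, 1.51-fold, limma adjusted p = 9.52e-06, n = 8). Rplp2 ran from -0.76 to -0.38 with a median of -0.51 (mean -0.54 ± 0.13, limma adjusted p = 4.55e-06, n = 8). Both stalk genes were below 0 in 8 of 8 mice. Rpl8, which lies near the peptidyl transferase centre, ran from -0.68 to -0.43 with a mean of -0.56 ± 0.09 (limma, adjusted p = 7.07e-07, n = 8).

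The large-subunit genes Rpl13 (-0.59 ± 0.13) and Rpl36a (-0.57 ± 0.12) shared a lowest mouse, TP4163 at -0.77 in both, and a highest mouse, TP4215 at -0.38 in both. The remaining 5 that passed were closer to 0, namely Rpl13a (-0.34 ± 0.12), Rpl21 (-0.27 ± 0.06), Rpl6 (-0.25 ± 0.08), Rpl19 (-0.24 ± 0.15) and Rpl27a (-0.24 ± 0.12). The 11 genes thus split into 6 with means between -0.66 and -0.54 and 5 between -0.34 and -0.24. The 5 that did not pass were Rpl10a-ps2 (-0.09, annotated as a pseudogene), Rpl35a (-0.08), Rpl39l (-0.01, a paralog known from testis), Rpl7 (0.00) and Rpl7l1 (0.03, a nucleolar relative of Rpl7). Rpl7, a core protein, had a range of -0.07 to 0.13, which does not overlap the range of any of the 6 lowest genes.

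The small cytosolic subunit had 12 genes, of which 8 passed, all negative. Rps15 had log2 ratios of -0.43, -0.38, -0.49 and -0.26 in the SY mice (in the order above) and -0.54, -0.32, -0.43 and -0.38 in the TP mice, a mean of -0.40 ± 0.09 and a 1.32-fold difference (limma, adjusted p = 5.61e-06, n = 8). It was below 0 in every mouse, and the SY and TP mice overlapped. Next came Rps19-ps3 (-0.38 ± 0.15) and Rps4l (-0.37 ± 0.11), both annotated as transcribed pseudogenes, whose probes may also bind the mRNA of the parent gene. Rps29, the small zinc-binding protein of the subunit head, ran from -0.43 to -0.20 (mean -0.33 ± 0.08, limma adjusted p = 1.59e-05, n = 8).

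Rps6, the classic substrate of the ribosomal S6 kinases, averaged -0.26 ± 0.14 and was below 0 in 7 of 8 mice, with 0.00 in TP4215. Its 2 probes gave -0.30 ± 0.17 and -0.23 ± 0.12. Rps15a (-0.27), Rps23 at the decoding centre (-0.26) and Rps24 (-0.24) completed those that passed. Rps23 and Rps24 were also at 0.00 in TP4215 and below 0 in every other mouse. Rps26 (-0.08), Rps13 (-0.02), Rps14 (-0.01) and Rps3a1 (0.00) did not pass. Rps14 was at -0.38 in TP4163 but between -0.07 and 0.14 in the other mice.

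**Figure D2:**
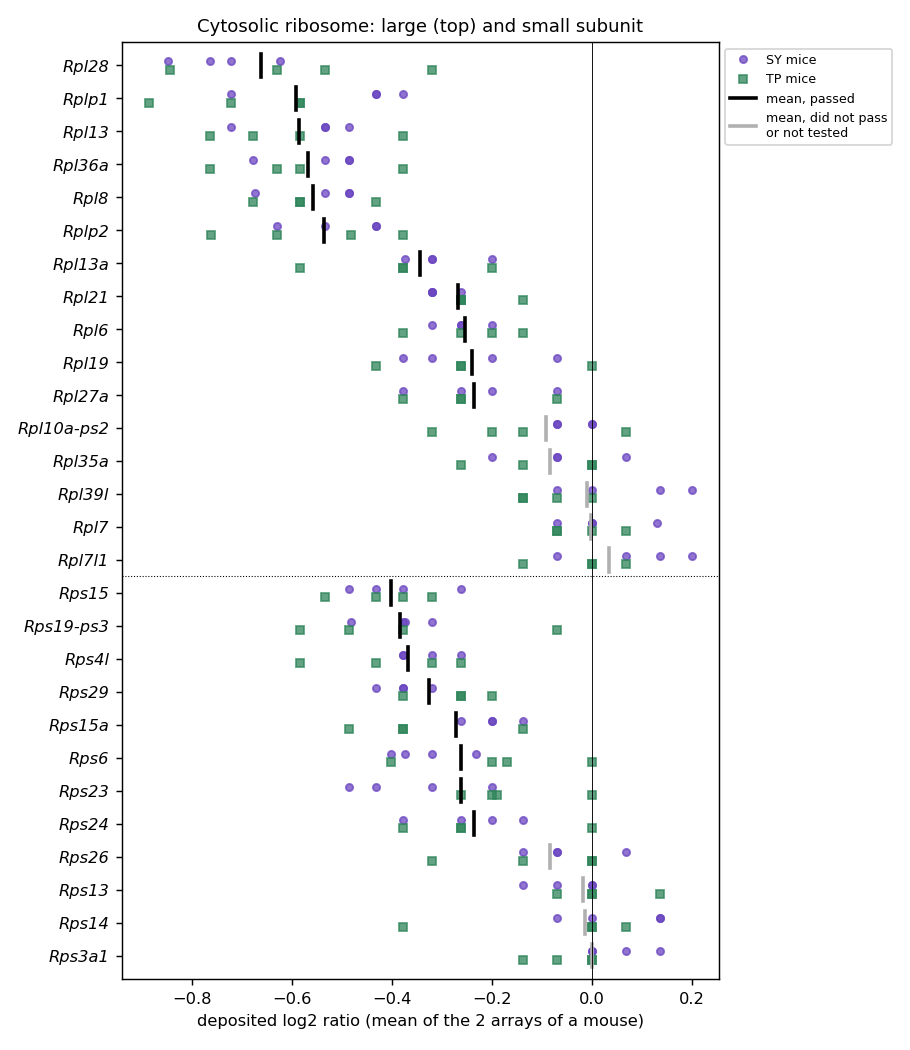
Deposited log2 ratio in each mouse (horizontal axis; circles SY, squares TP) of the 28 cytosolic ribosomal genes, large subunit above and small subunit below; vertical bars are means, black where the gene passed. Means run from -0.66 (Rpl28) to 0.03 (Rpl7l1, did not pass), and the genes that passed lie left of 0 in nearly every mouse.

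Of the 28 cytosolic ribosomal genes, 13 had a mean past 1.2-fold on the negative side, against 4.56% of everything tested, and 0 past it on the positive side, against 3.73%. In 15 of the 19 that passed, all mice were below 0. Ribosomal protein genes have many processed pseudogenes, and a cDNA probe can bind transcripts of either. Leaving out the 5 members that are paralogs or pseudogenes gave 17 of 23 and a median of -0.26.

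The elongation factors had the lowest class median. Eef1g, the gamma subunit of the complex that recharges eEF1A with GTP, had log2 ratios of -0.72, -0.63, -0.63 and -0.58 in the SY mice and -0.49, -0.77, -0.43 and -0.32 in the TP mice. All 8 values were below 0, and 3 of the 4 TP mice lay nearer to 0 than any SY mouse. Its mean of -0.57 ± 0.15 was a 1.49-fold difference (limma, adjusted p = 5.22e-06, n = 8). Eef1a1, the GTPase that brings aminoacyl-tRNA to the ribosome, averaged -0.40 ± 0.16 (limma, adjusted p = 8.26e-05, n = 8) and ran from -0.58 in SY522ROB to -0.07 in TP4215. Eef2, the translocase, averaged -0.34 ± 0.14 and ran from -0.58 to -0.20 (limma, adjusted p = 1.06e-04, n = 8).

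Eef1a2, the isoform known from muscle and neurons, did not follow. It had values in 6 mice, of 0.00, -0.20, -0.20 and -0.14 in the SY mice and 0.26 and 0.49 in TP4205 and TP4215. The SY and TP values did not overlap, and the mean over mice was 0.04 ± 0.28.

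Of the 20 tested initiation factors 8 passed with a negative and 4 with a positive ratio, where 25.4% and 18.0% of everything tested did. The class median was -0.06. The positive share lay near that of everything tested, so the positive count is no result about the class. The negative factors included 4 of the 6 measured subunits of eIF3, the large scaffold on the small subunit. Eif3f was lowest, with -0.43, -0.38, -0.54 and -0.54 in the SY mice and -0.26, -0.54, -0.32 and -0.20 in the TP mice (mean -0.40 ± 0.13, 1.32-fold, limma adjusted p = 2.80e-05, n = 8). Every mouse was below 0, and TP4215 was again nearest to 0. Eif3l (-0.20 ± 0.11), Eif3i (-0.15 ± 0.13) and Eif3a (-0.09 ± 0.09) passed with smaller means, and Eif3m (-0.10 ± 0.11) and Eif3d (0.03 ± 0.06) did not. The call of Eif3a was lost without any 1 of 5 mice, with adjusted p from 0.0565 to 0.103.

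Eif5a, the hypusine-bearing factor that helps ribosomes form difficult peptide bonds, ran from -0.49 to -0.26 with a median of -0.43 (mean -0.39 ± 0.08, limma adjusted p = 5.04e-06, n = 8). Eif1ax, which holds the scanning ribosome open, averaged -0.30 ± 0.11 (limma, adjusted p = 1.03e-04, n = 8). The paralogs Eif4a1 and Eif4a2 lay on opposite sides. Eif4a1, the helicase that unwinds the 5′ end, averaged -0.29 ± 0.15 (limma, adjusted p = 4.99e-04, n = 8), with a range of -0.54 to -0.07. Its paralog Eif4a2 averaged 0.16 ± 0.11 (limma, adjusted p = 0.00535, n = 8), with a range of 0.00 to 0.32, so the 8 mice did not overlap between these genes.

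Eif5a2, the second eIF5A gene, averaged 0.12 ± 0.13 where Eif5a was at -0.39, but its call was lost without any 1 of 6 mice (adjusted p from 0.0643 to 0.0920). Eif1ad, a nuclear protein with an eIF1A domain, averaged 0.13 ± 0.10, and Eif4e2, a cap-binding repressor of translation, 0.10 ± 0.05. The cap-binding protein Eif4e itself did not pass (0.08 ± 0.14). The scaffold relative Eif4g3 passed at -0.11 ± 0.09, though not without TP4163 or without TP4168 (adjusted p of 0.0539 and 0.0558). Eif4g2, a scaffold used when the cap is not, read -0.26 in SY518Z and -0.26, -0.26, -0.32 and 0.00 in the TP mice, and was not tested.

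The factors around eIF2, which carries the initiator tRNA, gave no call. Eif2b4, of the exchange factor eIF2B, averaged -0.07, Eif2a -0.05, and Eif2s3y, a Y-linked subunit gene that female mice lack, 0.05 ± 0.13. Eif1a (0.04) and Eif4e3 (0.02) did not pass either.

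**Figure D3:**
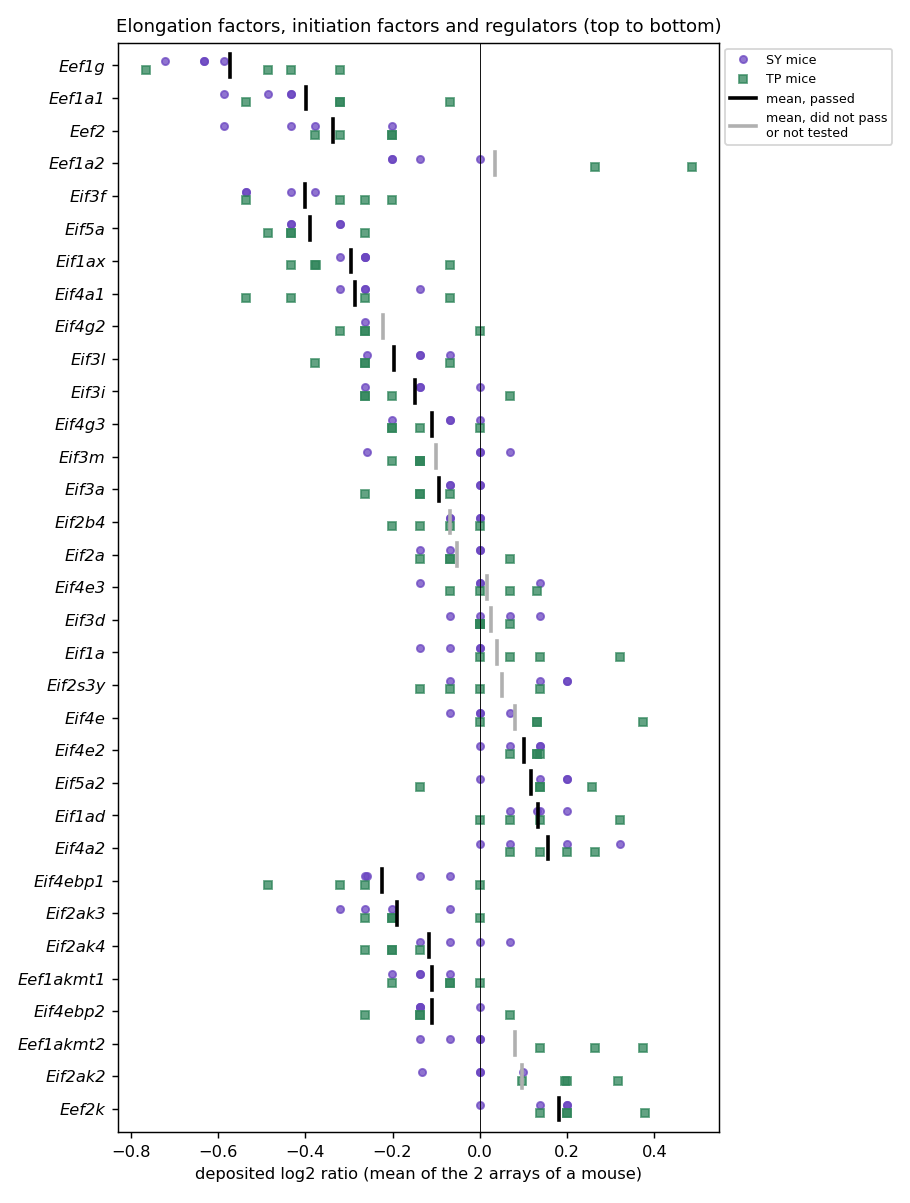
Deposited log2 ratio in each mouse (horizontal axis; circles SY, squares TP) of the elongation factors, initiation factors and regulators; vertical bars are means, black where the gene passed. Eif3f, Eif5a, Eif1ax and Eif4a1 lie left of 0 in every mouse, and Eif4a2 lies at or right of 0.

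The 30 mitochondrial ribosomal genes had 3 negative and 3 positive calls among 18 of the large subunit, and 4 negative and 2 positive among 12 of the small subunit. Both shares lie near those of everything tested (23.3% against 25.4% negative and 16.7% against 18.0% positive), so the counts are no result about the class. The members that passed had means farther from 0 than their SD, except Mrps33 (0.14 ± 0.15). The lowest of them, Mrpl32, lay nearer to 0 than each of the 19 cytosolic ribosomal genes that passed.

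On the positive side, Mrpl49 had log2 ratios of 0.43, 0.20, 0.26 and 0.14 in the SY mice and 0.14, 0.26, 0.38 and 0.49 in the TP mice. It was the single member with a positive call whose 8 mice were all above 0 (mean 0.29 ± 0.13, 1.22-fold, limma adjusted p = 2.71e-04, n = 8). Mrps34, a small-subunit protein, averaged 0.24 ± 0.15 with a range of 0.00 to 0.43 (limma, adjusted p = 0.00145, n = 8). Mrpl19 averaged 0.16 ± 0.12, Mrps33 0.14 ± 0.15 and Mrpl13 0.09 ± 0.08. The calls of Mrps33 and Mrpl13 were each lost without any 1 of 5 mice (adjusted p from 0.0555 to 0.0762 and from 0.0680 to 0.0774).

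On the negative side, Mrpl32, whose maturation by a mitochondrial protease is needed for ribosome assembly, ran from -0.38 to -0.07 (mean -0.22 ± 0.10, limma adjusted p = 5.48e-04, n = 8). Mrpl2, the relative of cytosolic Rpl8, averaged -0.22 ± 0.14 (limma, adjusted p = 0.00221, n = 8), and Mrpl44, a protein with a ribonuclease III fold, -0.19 ± 0.16. Mrps18a (-0.18 ± 0.06), Mrps18b (-0.17 ± 0.10), Mrps28 (-0.16 ± 0.08) and Mrps22 (-0.15 ± 0.12) completed the group. Classes here follow the symbols. The human Mrps18a protein is placed in the large subunit, and Mrps36 (-0.04, not passed) is known as a subunit of the alpha-ketoglutarate dehydrogenase complex.

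Another 18 mitochondrial ribosomal genes did not pass, with means from -0.10 (Mrps15) to 0.10 (Mrpl12, the counterpart of the bacterial stalk protein). For Mrps25 the 2 probes disagreed, at -0.14 ± 0.09 and 0.11 ± 0.16, and the mean of -0.01 stands between them. Mrpl39 likewise had probes at 0.12 ± 0.14 and -0.03 ± 0.09. Mrpl21 read -0.43 in TP4215 and between -0.07 and 0.20 in the other mice.

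**Figure D4:**
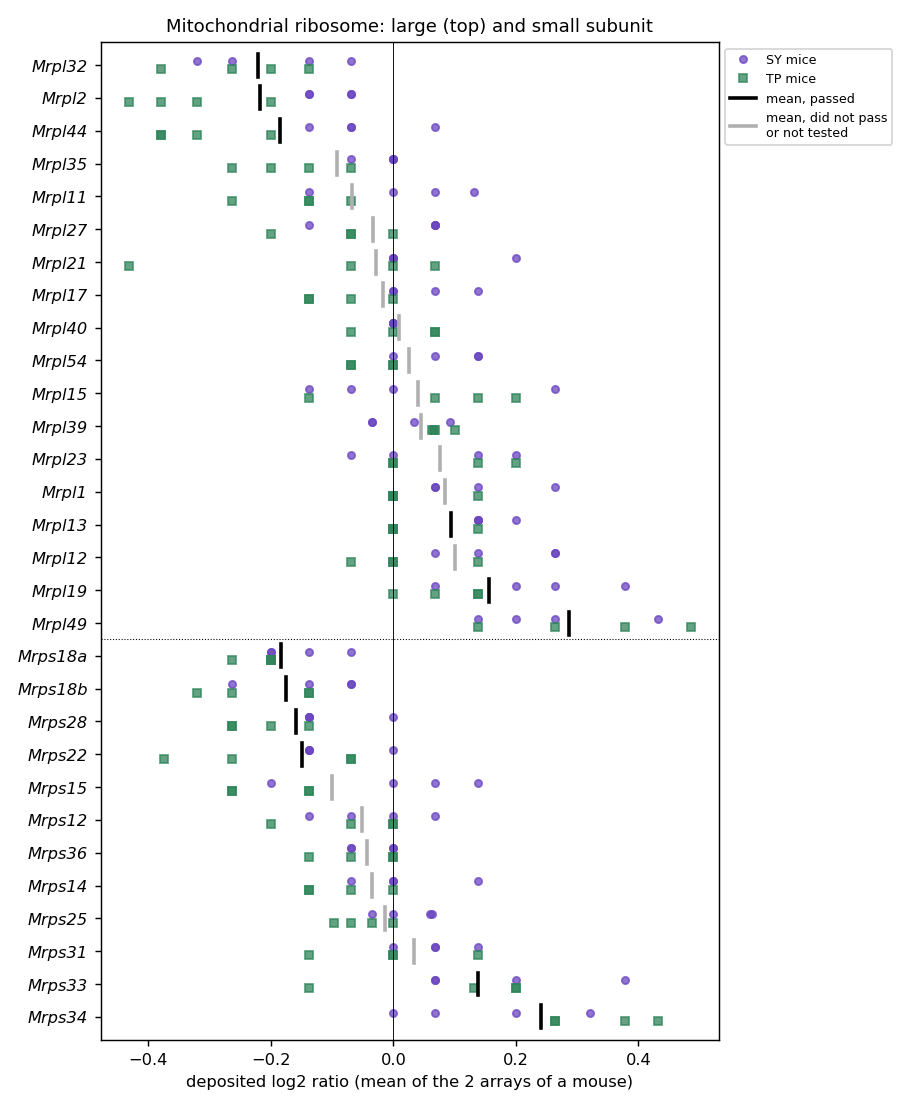
Deposited log2 ratio in each mouse (horizontal axis; circles SY, squares TP) of the 30 mitochondrial ribosomal genes, large subunit above and small subunit below; vertical bars are means, black where the gene passed. Means run from -0.22 (Mrpl32) to 0.29 (Mrpl49), and for Mrpl2 and Mrpl44 the TP mice lie left of the SY mice.

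Among the 8 regulators 5 passed with a negative and 1 with a positive ratio, where 25.4% and 18.0% of everything tested did. Eif4ebp1, which holds Eif4e away from the cap machinery until mTOR phosphorylates it, ran from -0.49 in TP4163 to 0.00 in TP4215 (mean -0.22 ± 0.15, limma adjusted p = 0.00263, n = 8). Its relative Eif4ebp2 averaged -0.11 ± 0.10. The kinases that phosphorylate eIF2 under stress gave -0.19 ± 0.11 for Eif2ak3, the endoplasmic reticulum sensor PERK, and -0.12 ± 0.11 for Eif2ak4, the amino acid sensor GCN2. Eif2ak2, the double-stranded RNA sensor PKR, did not pass at 0.10 ± 0.14, and its probes disagreed, at -0.01 ± 0.14 and 0.20 ± 0.15.

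Eef2k, the kinase that inhibits eEF2, lay opposite to its substrate. It read 0.20, 0.14, 0.20 and 0.00 in the SY mice and 0.20, 0.20, 0.38 and 0.14 in the TP mice (mean 0.18 ± 0.10, limma adjusted p = 0.00202, n = 8), where Eef2 averaged -0.34. The eEF1A methyltransferase Eef1akmt1 passed at -0.11 ± 0.07. The calls of Eif4ebp2 and Eif2ak4 were lost without any 1 of 4 and 5 mice, with adjusted p up to 0.0746 and 0.0741.

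Other genes of protein synthesis were read from fixed lists, whose counts stand beside 25.4% negative and 18.0% positive over everything tested, with a median of -0.02. Of 5 termination and rescue factors 3 passed, all negative: the release factors Etf1 (-0.35 ± 0.17) and Gspt1 (-0.17 ± 0.08), and Denr (-0.32 ± 0.19), which recycles the small subunit. Of 5 ribosome-associated factors, Fau, whose product is cut to give the small-subunit protein eS30, was at -0.43 ± 0.12 and the poly(A)-binding protein Pabpc1 at -0.24 ± 0.12. Larp1, which binds the pyrimidine tract and the cap, was at 0.20 ± 0.08 and above 0 in 8 of 8 mice (limma, adjusted p = 3.87e-04, n = 8).

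Ribosome biogenesis had 10 negative and 4 positive calls among 35 genes (median -0.05), or 28.6% and 11.4%, near the shares of everything tested, so the count is no result about the list. It included the assembly factors Mrto4 at -0.28 ± 0.06 and Imp4 at 0.37 ± 0.24 and the RNA polymerase I subunit Polr1b at -0.25 ± 0.06. Of 13 genes of mTOR signalling and the S6 kinases 3 passed on each side (median -0.01), or 23.1% each, also near the background, among them the amino acid-sensing GTPase Rraga (0.24 ± 0.09), Myc (-0.16 ± 0.12) and the kinase Akt2 (0.15 ± 0.08). Of 15 genes of the signal recognition particle and the translocon, which carry secreted proteins into the endoplasmic reticulum, 7 were negative and 1 positive (median -0.04). The channel subunits Sec61a1 (-0.41 ± 0.16) and Sec61b (-0.28 ± 0.17) and the associated Ssr1 (-0.34 ± 0.14) were below 0 in 8 of 8 mice.

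Cytosolic aminoacyl-tRNA synthetases, which charge tRNAs, had 3 negative and 1 positive call of 7. They were Tars at -0.24 ± 0.19, Hars at -0.17 ± 0.05, Eprs at -0.14 ± 0.09 and Iars at 0.14 ± 0.11. The mitochondrial synthetases had 2 and 1 of 7 (28.6% and 14.3%, near the background), with Mars2 at -0.14 ± 0.05, Ears2 at -0.13 ± 0.10 and Nars2 at 0.11 ± 0.10. The mitochondrial translation factors split evenly, with the elongation factor Tufm at -0.17 ± 0.11 and Mrrf at -0.08 ± 0.06, against Gfm1 at 0.20 ± 0.15 and Lrpprc, which stabilises mitochondrial mRNAs, at 0.14 ± 0.04.

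Markers of other liver cells were read from lists in the same way, beside 25.4% negative and 18.0% positive over everything tested. Of 13 Kupffer cell and macrophage markers 8 were negative and 1 positive (median -0.17; Spi1 0.28 ± 0.10 on the positive side), with Cd68 at -0.65 ± 0.22, Lgals3 at -0.58 ± 0.32 and Ctss at -0.38 ± 0.26. The macrophage markers Adgre1, Clec4f, Marco and Ccr2 did not pass, with means from -0.16 to 0.04. Of 14 stellate cell and fibroblast markers 9 were negative and 0 positive (median -0.20; Acta2 -0.49 ± 0.28, Col4a1 -0.46 ± 0.17), and lymphocyte (5 negative and 1 positive of 9), endothelial (3 and 0 of 8) and bile duct markers (3 and 1 of 6) had medians of -0.10, -0.07 and -0.17. Of the 9 lymphocyte markers 4 had a mean above 0, and the positive calls were Cd3d (0.15 ± 0.14) there and Cldn4 (0.40 ± 0.42) among the bile duct markers. Hepatocyte markers had 2 negative and 3 positive of 10 (median 0.10; Hpx -0.82 ± 0.26, Apoa1 -0.52 ± 0.35, Fgb 0.23 ± 0.11). Their part in the ratios of ribosomal and factor genes was not tested.

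The class medians differed between mice. The cytosolic ribosome's median lay between -0.38 (SY522ROB and TP4163) and -0.14 (TP4215), that of the elongation factors between -0.58 (SY522ROB) and -0.13 (TP4215), and that of the mitochondrial ribosome between -0.14 and 0.00. The cytosolic median was below the mitochondrial one in 8 of 8 mice. TP4215 was highest or tied for highest in 17 of the 19 cytosolic ribosomal genes that passed, and in 10 of the 11 negative initiation and elongation factors. In the same mouse the macrophage markers had a median of 0.14, where the other mice had -0.38 to -0.14. Its medians of the other marker lists lay within the range of the other mice. They were 0.20 for hepatocyte, -0.14 for stellate cell, -0.14 for lymphocyte, -0.07 for endothelial and -0.20 for bile duct markers. A link between markers and translation genes was not tested. Without TP4215, 20 cytosolic ribosomal genes passed, and 42 negative and 10 positive members in all.

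**Figure D5:**
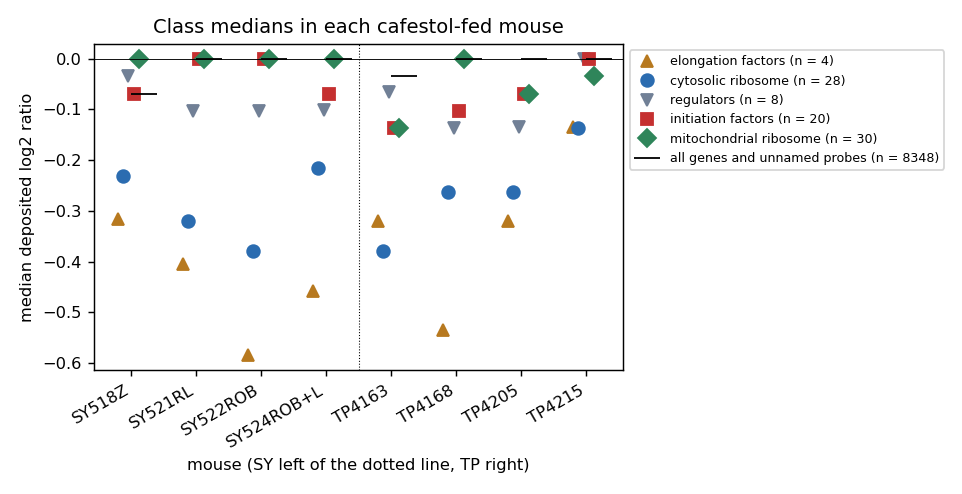
Median deposited log2 ratio of each class (vertical axis) in each of the 8 cafestol-fed mice, SY left and TP right of the dotted line; black bars are the median of everything tested. The cytosolic ribosome and the elongation factors lie below the other classes in all 8 mice, and in TP4215 all medians lie between -0.14 and 0.00.

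The SY and TP mice were compared in the same model with 2 groups. Of the 90 members 4 passed, where 5.7% of everything tested did (1.29% higher and 4.41% lower in SY mice, and 2 members each way), so the count is no result about the translation genes. Mrpl2 averaged -0.10 in SY mice and -0.33 in TP mice, a difference (SY minus TP) of 0.23 (limma, adjusted p = 0.0475, n = 4 each). Mrpl44 averaged -0.05 in SY mice and -0.32 in TP mice, a difference of 0.27 (limma, adjusted p = 0.0350, n = 4 each). The ranges of SY and TP mice did not overlap in either gene. Eef1a2 differed by -0.51 (SY -0.13, n = 4, and TP 0.37, n = 2; limma, adjusted p = 0.0165) and Eef1akmt2 by -0.31 (SY -0.05, n = 4, and TP 0.26, n = 3; limma, adjusted p = 0.0343). Leaving out 1 mouse gave between 0 and 9 members. The calls of Mrpl2, Mrpl44 and Eef1akmt2 were each lost without 1 of several mice (limma, adjusted p up to 0.145, 0.114 and 0.115). Eef1a2 could not be tested without any of the 6 mice that had its values. An array code in the titles nearly follows the SY and TP series, so the 2 cannot be told apart.

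The cytosolic ribosomal calls did not rest on 1 mouse, since all 19 passed when any 1 of the 8 was left out, as did all 3 elongation factor calls. Of the other calls this held for 10 of 12 in the mitochondrial ribosome, 9 of 12 in initiation and 4 of 6 among the regulators. With the SY mice alone, 15.4% of everything tested was called negative and 9.49% positive, and 33 of the 42 negative and 4 of the 10 positive members kept their calls. With the TP mice alone, at 21.6% and 15.8%, 31 and 5 kept them. No control mouse has values of its own, so their spread was not measured. With an error enlarged as if the control RNA were an equal mix of 7 mice, the number in the labels, varying like the cafestol-fed ones, 12.9% of everything tested was negative and 8.8% positive, and 34 of the 42 negative and 3 of the 10 positive members kept their calls. Tested against a minimum difference of 1.2-fold, which 0.815% passed as negative and 0.659% as positive, 8 negative members and 0 positive ones were left, namely Rpl28, Rplp1, Rpl13, Rpl36a, Rpl8, Rplp2, Rps15 and Eef1g.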

How the data were processed

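The values deposited by the authors are log2 ratios of 2 channels. How they normalized and corrected the signals, why some values are blank and which channel is the numerator were not given in the sources used here. Channel contents and dyes are taken per the labels. All 144660 values were used as deposited, since every array's median was 0, and 0 columns were left out. Of 9596 probes, 7407 had 1 gene symbol in the platform annotation, checked by Entrez identifier against a RefSeq table (GRCm38.p6). Another 437 had several symbols and were not named, 19 of them with a symbol that matches the choice of members (11 negative, 2 positive). Probes of a gene were averaged (4 members had 2 probes), then both arrays of a mouse.

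Of 8923 genes and unnamed probes, 8348 had values in 6 or more of the 8 mice. Their mean was tested against 0, and SY minus TP mice as 2 groups, with limma 3.58.1 under R 4.3.3 (two-sided moderated tests from lmFit and eBayes, p-values adjusted by Benjamini and Hochberg). Such a p measures the spread among the cafestol-fed mice only, and no label says how they were housed. The number of mice limits the precision, since both arrays of a mouse were averaged before the test. Members and the 14 gene lists were chosen with earlier results of these data known. Named genes follow a rule: in each class the 4 lowest and 3 highest calls, those between SY and TP, and up to 3 uncalled of widest range in detail, others by mean, and up to 3 called genes of each list. For the cell type lists, further positive calls and the uncalled macrophage markers are also named. Every called gene is named for the cytosolic synthetases and the mitochondrial translation factors. Alternatives covered centring, scaling, quantile normalization, single probes and arrays, blank filters, robust moderation, left-out mice, SY or TP mice alone, an assumed spread of control mice and a minimum fold. Promoter sequences came from RefSeq (27025 genes) and matched 69 members by Entrez identifier. Figures were drawn with matplotlib 3.10.9.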

Additional observations from a re-analysis of the deposited data

Results flagged for a closer look

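For 7 genes of 97 gene and group combinations examined, 1 mouse stood farther from its nearest neighbour than Dixon's 95% critical value allows (0.526 of the range for 8 mice), where chance gives about 1 in 20 such groups. The mouse was TP4215 in 5 of them: Eif1ax (-0.069, nearest mouse -0.26), Eif4e (0.37, nearest 0.13), Eif4g2 (0.00 of 5 mice, nearest -0.26), Mrpl21 (-0.43, nearest -0.07) and Rpl21 (-0.14, nearest -0.26). It was TP4163 for Rpl13a (-0.58, nearest -0.38) and Rps14 (-0.38, nearest -0.07).

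The ratios of 4 genes differed between SY and TP mice by the test of that difference (limma, SY minus TP): Eef1a2 by -0.51, Mrpl2 by 0.23, Mrpl44 by 0.27 and Eef1akmt2 by -0.31. The calls of Mrpl2, Mrpl44 and Eef1akmt2 were each lost without 1 of several mice.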

How the results depend on the processing

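No call moved to the other side of 0 under any alternative run. Leaving out each mouse in turn gave 38 to 45 negative and 7 to 11 positive members, 19 to 20 negative cytosolic ribosomal genes, 7 to 9 negative and 3 to 6 positive mitochondrial ones, 6 to 9 negative and 3 to 4 positive initiation factors, 3 negative elongation factors, 3 to 5 negative and 1 to 2 positive regulators, and 0 to 9 members between SY and TP mice (1 with values in all 8 mice required). The minimum difference of 1.2-fold, by construction stricter, left 8 negative members and 0 positive: 7 cytosolic ribosomal genes, 1 elongation factor, and 0 in the other classes on either side (68 and 55 of everything tested). With the error enlarged for an assumed, unmeasured spread of 7 control mice, 3 positive members were left (2 mitochondrial, 0 initiation), with 5 negative initiation factors and 2 negative regulators. With SY mice alone there were 5 positive members (1 initiation, 0 regulators), 3 negative mitochondrial genes, 5 negative initiation factors and 3 negative regulators. With TP mice alone there were 2 positive mitochondrial genes, 2 positive initiation factors, and 1 negative and 3 positive regulators. The first arrays gave 1 positive initiation factor and 3 negative regulators, the second arrays 3 positive mitochondrial genes. Positive regulators numbered 2 with single probes or with 16 arrays blocked by mouse, and 3 with the mean of the SY and TP means. Except where fewer mice or a stricter test enter by construction, the cause was not tested. No paired analysis was possible because the control RNA carries no mouse number. The rounding of ratios to 1 decimal limits small differences.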
